A study of Mus musculus with 6 samples.

Results

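Cycling CD8 T cells are the CD8 T cells that carried RNA of Mki67, which encodes the proliferation antigen Ki-67, or of Top2a, the topoisomerase that untangles DNA before division. They were selected by unique molecular identifiers (UMIs), each of which counts 1 captured RNA molecule. A cell had to hold at least 3 UMIs of Cd3d, Cd3e, Cd3g, Trac, Trbc1 and Trbc2 together, at least 1 of Cd8a and Cd8b1, none of Cd4, Foxp3 or Cd79a, at most 5 of Lyz2, C1qa, C1qb and C1qc, and at least 2 of Mki67 and Top2a together. The gate held 1770 cells, out of 7979 CD8 T cells and 51633 cells that passed quality filters, and the remaining 6209 CD8 T cells are called other CD8 T cells here.

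The cells came from 6 single-cell RNA sequencing libraries made with the 10x method, with 1 mouse in each treatment group, and treatments could therefore not be compared with biological replicates. Female C57BL/6 mice of 6 to 8 weeks received KPCA cells in the ovarian bursa, and tumors were collected on day 30, by the methods section. KPCA is an ovarian cancer line from mice that is proficient in homologous recombination. By contrast, lymph node is the tissue in the sample labels, while the series text names young and aged mice. Keratin-positive cells were 0.211% of the cells that passed the filters (109 of 51633). The control mouse received solvents and rat IgG. The 2DG mouse received 2-deoxy-D-glucose, an inhibitor of glycolysis and of N-glycan assembly, by injection every 2 days from day 9. The 2FF mouse received 2-fluoro-L-fucose, an inhibitor of fucosylation, by gavage every 2 days, and its tumor cells had been kept in 2FF for 3 days before implantation. The sample labels give 2FF as 2F-Peracetyl-Fucose. The anti-PD-L1 mouse received 5 mg/kg of an antibody against PD-L1 (the ligand of the inhibitory receptor PD-1) 2 times a week for 3 weeks after day 9. Another mouse received 2DG plus anti-PD-L1, and the last mouse both 2FF and anti-PD-L1. The control and anti-PD-L1 libraries served both inhibitors. Between 61859753 and 73885214 UMIs were counted per library.

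T cells that meet their antigen leave quiescence, copy their DNA in S phase and divide in mitosis. Entry into S phase is driven by cyclins and E2F transcription factors, which switch on replication enzymes, nucleotide synthesis and histones. The mitotic genes follow later. Many of their promoters carry CCAAT boxes and a cell cycle homology region (letters TTTGAA), through which they are held down outside division. In tumors, cycling CD8 T cells occur among stem-like cells with the transcription factor TCF1 (gene Tcf7) and among cells that carry the inhibitory receptor TIM-3 (gene Havcr2).

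Shown are the sequences before the RefSeq starts of 2 genes, the replication gene and the mitosis gene that lead the lists below. These had the largest differences of their lists between cycling and other CD8 T cells. Mcm10 encodes a factor that helps start replication forks, and Kif14 a kinesin motor of cell separation. The letters are the 250 bases before the RefSeq start in GRCm38.p6, with matches to the searched motifs in capitals, either as written or as their reverse complement. The Mcm10 window lies at chr2:5012792-5013041 on the minus strand and holds CCAAT at 2 positions. The Kif14 window lies at chr1:136467598-136467847 on the plus strand and holds TTTGAA and CCAAT at 1 position each. It overlaps no exon in GENCODE M21 but lies within 1 annotated Kif14 transcript, so it is intron sequence of that transcript. The nearest GENCODE start is 87 bases downstream of the RefSeq start, and whether the window acts as a promoter was not tested.
Mcm10: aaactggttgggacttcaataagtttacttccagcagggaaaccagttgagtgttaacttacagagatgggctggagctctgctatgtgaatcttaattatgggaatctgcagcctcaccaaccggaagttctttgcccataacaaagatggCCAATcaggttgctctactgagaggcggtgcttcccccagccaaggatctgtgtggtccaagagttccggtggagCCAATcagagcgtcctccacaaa
Kif14: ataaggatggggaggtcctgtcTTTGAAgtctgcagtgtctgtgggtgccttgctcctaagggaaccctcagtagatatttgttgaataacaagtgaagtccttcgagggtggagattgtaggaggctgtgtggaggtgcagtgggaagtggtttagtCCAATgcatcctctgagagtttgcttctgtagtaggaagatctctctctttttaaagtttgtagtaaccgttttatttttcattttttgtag

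Across all RefSeq promoters of this length, searched on both strands, 15.99% held TTTGAA (5252 of 32851), 33.8% held CCAAT (11120) and 1.3% held an E2F motif (TTTGGCGC or TTTCCCGC). CCAAT was present in 39 of 55 promoters of the mitosis list (70.9%) and in 23 of 33 of the DNA replication list (69.7%). TTTGAA was present in 20 of the 55 mitosis promoters (36.4%) and in 6 of the 33 replication promoters (18.2%). The E2F letters were present in 5 of 33 replication promoters (15.2%), in 3 of 55 mitosis promoters (5.45%) and in 5 of 18 promoters of the G1 and S entry list (27.8%). The share with CCAAT was lower in the G1 and S entry list, with 8 of 18 promoters (44.4%), in the cytotoxicity and cytokine list, with 5 of 24 (20.8%), and in the stem-like list, with 3 of 16 (18.8%). The background took every promoter entry, while each list took the first entry of each gene that had one. These are matches of letters only.

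Cd8a, which the gate required together with Cd8b1, stood at 543, 535, 629, 564, 619 and 581 CPM (counts per 1000000 UMIs of the gated cells of a library). Lists of 6 values here begin with the libraries made without the antibody (control, 2DG, 2FF) and end with anti-PD-L1 alone, with 2DG and with 2FF. Mki67, also read by the gate, stood at 628, 444, 506, 462, 546 and 493 CPM. Top2a, the other dividing-cell gene of the gate, stood at 612, 438, 517, 484, 567 and 529 CPM. The gate fixed the presence of these genes, so their levels are a description. Stmn1, a microtubule regulator of dividing cells that the gate did not read, stood at 342, 282, 434, 405, 399 and 320 CPM in cycling cells against 5.89, 20.2, 26.1, 28.3, 21.2 and 24.03 CPM in other CD8 T cells. All 6 cycling values of Stmn1 lay far above all 6 other values.

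Cells just inside the gate resembled cells just outside it more than the rest of the gated cells. Among the cycling cells, 37.4% held exactly 2 UMIs of Mki67 and Top2a and 26.8% held 10 or more. Stmn1 rose with the gate UMIs, from 19.7 CPM in CD8 T cells with none and 33.3 CPM with 1 to 56.6 CPM with 2, 106 CPM with 3, 326 CPM with 5 to 9 and 722 CPM with 10 or more. The mitosis genes together, without the gate genes, stood at 832 CPM in cells with 1 gate UMI, 949 CPM with 2 and 8704 CPM with 10 or more. The replication and nucleotide genes together went from 1538 CPM with 1 gate UMI to 1842 CPM with 2 and 6230 CPM with 10 or more. Depth rose along the same classes, with a median of 6433 UMIs per cell with 1 gate UMI, 6998 with 2 and 14386 with 10 or more. How many of the cells with 2 gate UMIs held them from free RNA was not tested.

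**Figure D1:**
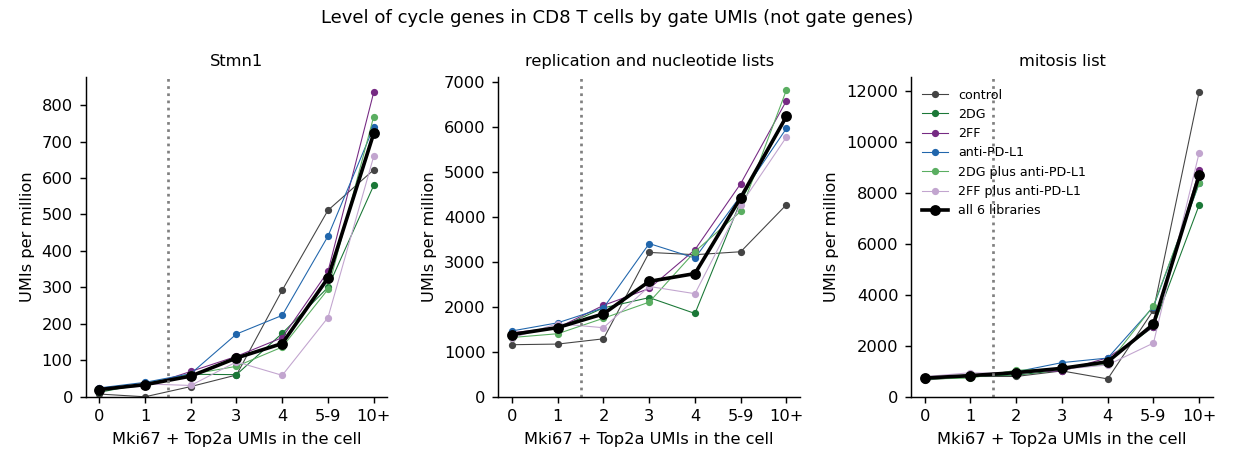
Levels in CPM (vertical axes) of Stmn1 (left), of the replication and nucleotide genes summed (middle) and of the mitosis genes summed without the gate genes (right) in CD8 T cells by their Mki67 and Top2a UMIs (horizontal axis), with 1 coloured line per library, black for all 6 libraries together and a dotted line at the gate. The black line of Stmn1 climbs from 19.7 CPM with no gate UMI to 722 CPM with 10 or more, with small steps on either side of the gate.

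The share of CD8 T cells in cycle was highest in 2FF plus anti-PD-L1. It was lowest in the 2DG plus anti-PD-L1 library at the gate as defined, but in the control library with cells thinned, with 10 or more gate UMIs or with doublets removed (14.9% against 16.9%). The share was 18.3% in the control library (23 of 126 CD8 T cells; exact 95% Clopper-Pearson interval 11.9 to 26.1%, which like all intervals here covers counting error only). It was 23.9% in 2DG (323 of 1351; 21.7 to 26.3%), 21.3% in 2FF (426 of 2000; 19.5 to 23.2%) and 21.2% in anti-PD-L1 (349 of 1647; 19.2 to 23.2%). It was 17.5% in 2DG plus anti-PD-L1 (303 of 1732; 15.7 to 19.4%), whereas it reached 30.8% in 2FF plus anti-PD-L1 (346 of 1123; 28.1 to 33.6%). The interval of 2FF plus anti-PD-L1 overlapped none of the other 5, while that of 2DG plus anti-PD-L1 overlapped those of the control and anti-PD-L1 libraries.

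Depth differed in the same direction, since the CD8 T cells of 2FF plus anti-PD-L1 had the highest median (8027 UMIs per cell, against 5884 to 7031 in the other 5 libraries). With each cell thinned to 3000 UMIs, which left out 308 shallower cells, the expected share past the gate was 8.996%, 11.5%, 11.9%, 11.4%, 9.55% and 14.6%. The interval of 2FF plus anti-PD-L1 (12.6 to 16.8%) then overlapped those of the control (4.49 to 16.2%), 2DG (9.87 to 13.4%), 2FF (10.5 to 13.4%) and anti-PD-L1 (9.89 to 13.1%). At 10 or more gate UMIs, a limit added after the data were seen, the shares were 4.76%, 5.55%, 5.85%, 5.28%, 5.20% and 8.91%, and the interval of the highest (7.30 to 10.7%) overlapped the interval of the control library only (1.77 to 10.1%). Neutrophils, which do not divide once mature, passed the same gate on Mki67 and Top2a in 2.57% of cells over all libraries at a median of 3921 UMIs, and B cells in 6.26% at a median of 5514 UMIs, against 22.2% of CD8 T cells. At 3000 UMIs these shares were 1.63%, 3.04% and 11.6%. The pooled neutrophil share rests mostly on the control library (2839 of 3895 cells, 2.04%), and neutrophils reached 7.24% in 2DG (16 of 221) and 5.59% in 2DG plus anti-PD-L1 (9 of 161), or 7.84% and 6.33% at 3000 UMIs, where CD8 T cells stood at 11.5% and 9.55%. With 1 mouse per group, a difference between treatments cannot be told apart from one between mice or library preparations.

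CD4 T cells of the same libraries gave another order. Their cycling share was 28.0%, 28.5%, 16.5%, 20.2%, 16.1% and 30.8% of cells, and 13.7%, 13.7%, 8.40%, 10.4%, 7.92% and 13.4% at 3000 UMIs. The 2FF plus anti-PD-L1 library was highest for both lineages before thinning, and after thinning it was highest for CD8 T cells only.

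**Figure D2:**
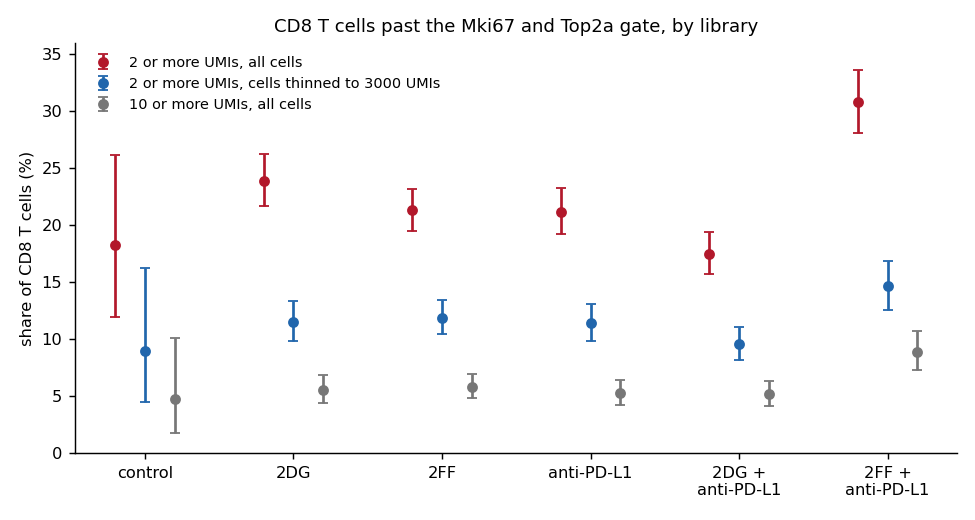
Share of CD8 T cells past the gate (vertical axis, percent) in each library (horizontal axis), for all cells (red), for cells thinned to 3000 UMIs (blue) and for a gate of 10 or more UMIs (grey), with exact 95% intervals for counting error. The red point of 2FF plus anti-PD-L1 sits at 30.8%, above the intervals of all other libraries, and its blue interval overlaps 3 of them besides the wide interval of the control.

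Cycling cells were found among cells with and without Havcr2, more often with it. Of the cycling cells, 65.9% had a Havcr2 UMI, against 50.4% of other CD8 T cells. Cells with Tcf7 and no Havcr2 were 6.67% of cycling and 11.8% of other cells, and cells with neither were 27.4% and 37.7%. Because deeper cells have more of every UMI, the cycling share was compared at 3000 UMIs. It was 11.5%, 13.7%, 13.1%, 13.8%, 11.2% and 17.0% of Havcr2-positive cells. It was 9.57%, 7.60%, 9.29%, 4.24%, 8.69% and 7.05% of Tcf7-positive cells without Havcr2. The Havcr2-positive share was higher in 6 of 6 libraries, by 5.64 ± 3.51 percentage points (SD over 6 libraries; exact two-sided sign-flip permutation test, p = 0.03125, the smallest that 6 pairs can give). Cells with neither gene stood at 2.65%, 10.6%, 10.4%, 9.78%, 6.94% and 13.2%, lowest in the control library. With the marked doublets removed, the difference between Havcr2-positive and Tcf7-positive cells was 5.27 points, positive in 5 of 6 libraries, and the exact p was 0.0625. With Havcr2 and Tcf7 thinned as well it was 5.20 points with the same exact p.

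Within the cycling cells, more cells passed a limit of 5 UMIs for replication genes than for mitosis genes. Of the 1759 cycling cells with at least 3000 UMIs, thinned to that number, 24.8% (22.8 to 26.9%) held 5 or more UMIs of the replication and nucleotide genes only, 7.28% of the mitosis genes only, 38.0% of both and 29.9% of neither. The share with 5 or more replication UMIs was 47.8%, 57.8%, 68.1%, 67.7%, 59.8% and 59.7%, lowest in the control library with its 23 cells. The share with 5 or more mitosis UMIs was 43.5%, 39.4%, 47.7%, 48.3%, 42.5% and 47.2%. Among other CD8 T cells at the same depth, 37.3% reached the replication limit and 10.5% the mitosis limit, against 62.8% and 45.2% of cycling cells over all libraries. The classes are ranges of a count, with 458 of the cycling cells within 1 UMI of the replication limit and 307 within 1 UMI of the mitosis limit.

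**Figure D3:**
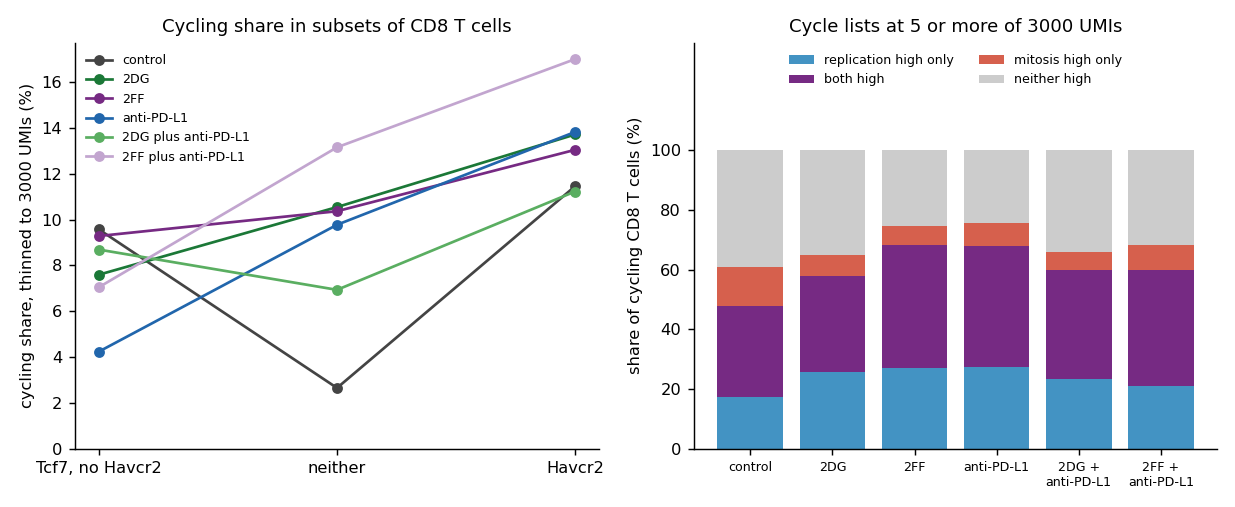
Left, cycling share (vertical axis, percent, cells thinned to 3000 UMIs) of CD8 T cells with Tcf7 and no Havcr2, with neither gene and with Havcr2, 1 line per library. Right, shares of the cycling cells of each library with 5 or more UMIs of replication genes, of mitosis genes, of both or of neither. Each line ends higher at Havcr2 than it begins at Tcf7, and the class with neither holds 29.9% of cells over all libraries.

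Levels were then compared between cycling and other CD8 T cells within each library, over 11042 genes without the gate genes. By edgeR's quasi-likelihood test with the library as a block and a Benjamini-Hochberg adjusted p under 0.05, 2588 genes were higher in cycling cells (23.4% of those tested) and 2281 were lower (20.7%). Only 497 were at least 2-fold higher (4.5%) and 55 at least 2-fold lower (0.498%), and the median log2 difference over all genes was -0.0016. Each of the 6 libraries is another treatment, so these p-values measure the spread over 6 mice treated differently. The gated cells were deeper, with medians of 8499 to 12569 UMIs per cell against 5544 to 7378, so each comparison was repeated with other cells matched to cycling cells on UMIs. Matching narrowed the depth gap without closing it. Median UMIs of the matched cells were below those of cycling cells in 5 of 6 libraries, by most in control (10869 against 12569) and 2FF plus anti-PD-L1 (9286 against 10697), and their summed UMIs were lower in each library. Matching left 1809 genes higher and 1559 lower. Cells with the highest simulated-doublet scores were 7.74% of the cycling and 5.03% of the other cells, and 26.1% of the cycling cells of the control library. Removing them left 2540 genes higher and 2513 lower.

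The largest differences were those of cell cycle genes. Their counts describe what a gate on 2 cycle genes collects and are read no further. Of the DNA replication list 41 of 41 genes tested were higher, with a median log2 difference of 1.84. Mcm10 (ENSMUSG00000026669, chr2:4989714-5012791) stood at 19.5, 24.6, 27.9, 27.9, 26.3 and 24.7 CPM in cycling cells and at 0, 0.917, 0.532, 0.878, 0.230 and 0.672 CPM in other cells, a log2 difference of 5.34 (SE 0.22). Cdc45, which loads with the replicative helicase, was higher by 4.25 on the log2 scale, and Pcna, the sliding clamp of DNA polymerases, by 1.32. Pcna was abundant in both states, at 224 ± 47.3 CPM in cycling and 91.0 ± 8.52 CPM in other cells (mean ± SD, n = 6 libraries).

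Of the G1 and S entry list 17 of 21 genes were higher (median 1.14). E2f8 (5.18), E2f7 (4.27), Cdc6 (4.05), which licenses replication origins, and Mybl2 (3.34) led it. Ccnd3, a D-type cyclin that acts early in G1, went the other way and stood at 325, 339, 243, 281, 304 and 365 CPM in cycling cells and at 631, 614, 541, 629, 641 and 688 CPM in other cells. It was lower in each library, and no cycling value reached the lowest other value (log2 difference -1.05, SE 0.05, edgeR adjusted p = 8.2e-13). Ccnd2 was also lower (-0.42), while Ccnd1 (0.65) and Cdk6 (0.16) did not pass the test.

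The nucleotide supply genes were higher in 20 of 20 (median 1.16), led by Rrm2 (4.25), a subunit of ribonucleotide reductase and including thymidylate synthase Tyms (2.87). Of 26 histone genes tested 25 were higher (median 2.77). Hist1h2ab stood at 100.8, 138, 210, 257, 328 and 142 CPM against 1.34 to 3.102 CPM, lowest in the control library and highest in 2DG plus anti-PD-L1. Histone genes have near-identical copies, so the split of UMIs between them is uncertain.

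The mitosis list was higher in 67 of 68 genes (median 3.64), 65 of them at least 2-fold. Kif14 (ENSMUSG00000041498, chr1:136466343-136531511) stood at 55.3, 20.8, 22.4, 25.1, 20.4 and 18.7 CPM in cycling cells and at 0 to 0.459 CPM in other cells, highest in the control library. Hmmr, a spindle-associated protein, stood at 107, 57.0, 76.1, 54.4, 71.4 and 73.0 CPM against 0 to 1.26 CPM. The mitotic kinases Plk1 (5.88), Aurkb (5.17) and Cdk1 (4.17) and cyclin B1 (Ccnb1, 4.23) were higher, and the exception was the securin gene Pttg1, at 46.5 ± 7.75 CPM in cycling and 46.5 ± 6.75 CPM in other cells (n = 6 libraries). Of the chromatin and cytoskeleton list 23 of 23 genes were higher (median 1.32), among them Pclaf (5.46), a partner of PCNA, and the tubulin gene Tuba1b (2.52).

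Of the homologous recombination and replication stress list 26 of 28 genes were higher (median 2.19), with Rad51ap1 (5.01), Exo1 (4.46) and Brip1 (4.32) in the lead. Brca1 (3.62) and Brca2 (2.18) were higher as well. The exceptions were the damage kinases Atr and Atm, and Atr stood at 33.6 ± 5.42 CPM in cycling and 30.02 ± 2.44 CPM in other cells.

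The cell cycle brakes did not move one way, with 9 of 26 higher and 12 lower (median -0.03). Higher were Cdkn3 (3.50), Pkmyt1 (2.08), an inhibitor of Cdk1, and the INK4 genes Cdkn2a (1.27) and Cdkn2c (1.15). Lower were the quiescence genes Klf2 (-0.99), Foxp1 (-0.84), Tsc22d3 (-0.83), Btg2 (-0.72) and Btg1 (-0.70) and the p27 gene Cdkn1b (-0.46). Cdkn1b stood at 78.1, 85.1, 103, 61.7, 86.2 and 97.2 CPM in cycling cells against 94.3, 127, 132, 89.7, 119 and 119 CPM, lower in each library while the ranges overlapped. Cdkn1a, the p21 gene, was higher (0.53) with all cells but stood at -0.26 against other cells matched on UMIs. Of the p53 target genes 3 of 14 were higher and 2 lower (1 and 2 against matched cells). Over all genes tested 23.4% were higher and 20.7% lower, so the p53 counts are read no further.

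**Figure D4:**
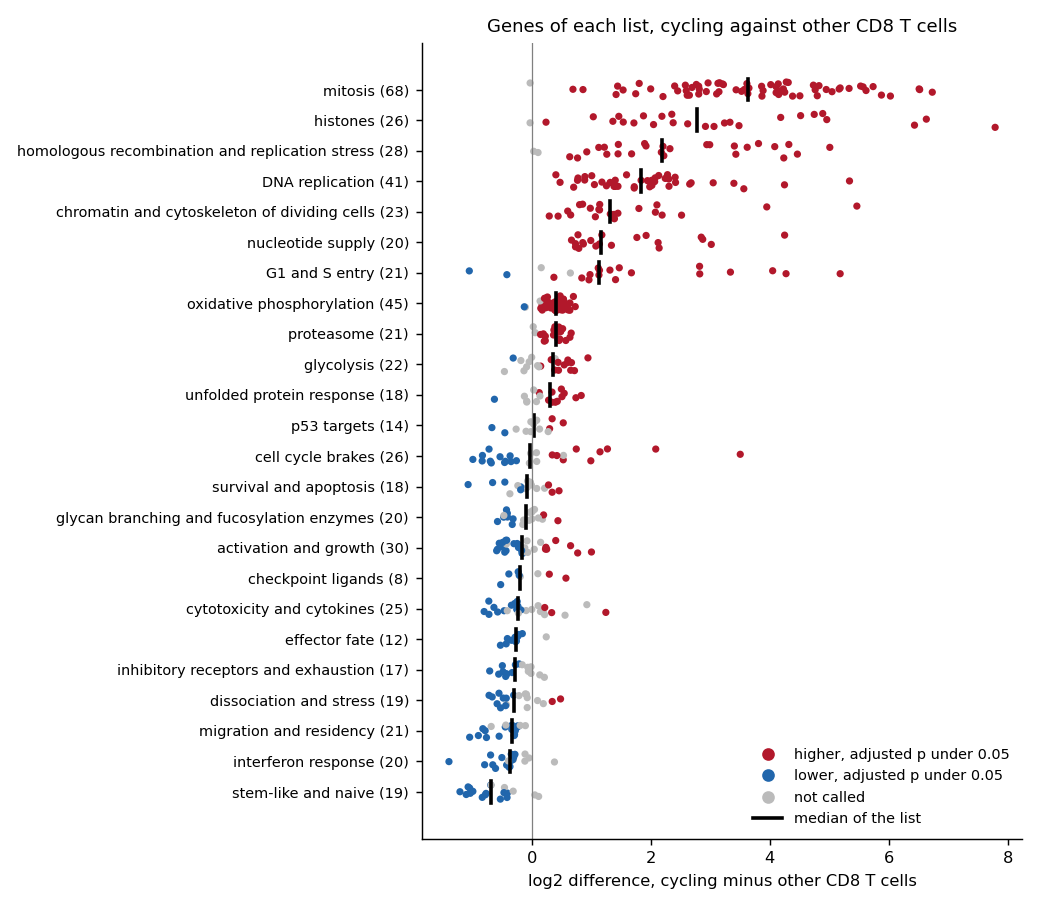
Log2 differences between cycling and other CD8 T cells (horizontal axis) of the members of each gene list (rows), red where higher and blue where lower at an adjusted p under 0.05, grey where not called, with the list's median as a black mark. The mitosis, histone and recombination lists lie far to the right with medians of 3.64, 2.77 and 2.19, and the stem-like list to the left with a median of -0.69.

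Genes of quiescent and stem-like T cells were lower in cycling cells. Of 19 genes of the stem-like and naive list 14 were lower and 0 higher, 5 of them at least 2-fold (median -0.69). Tcf7 (chr11:52252371-52283014) stood at 26.0, 24.9, 21.2, 14.0, 18.8 and 20.2 CPM in cycling cells and at 102, 52.9, 36.2, 42.3, 34.6 and 54.8 CPM in other cells. The groups did not overlap (log2 difference -1.21, SE 0.11, edgeR adjusted p = 1.5e-07). Bcl2, a survival gene of resting T cells, stood at 511, 254, 190, 202, 127 and 266 CPM against 793, 543, 311, 437, 383 and 536 CPM, lower in each library (log2 difference -1.07). The control library was the highest in both states, and the ranges overlapped.

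The egress receptor S1pr1 (-1.05), the factor Klf3 (-1.10), the interleukin 7 receptor Il7r (-0.78) and Lef1 (-0.69) were lower as well. Within Havcr2-positive cells only, a comparison added after the data were seen, 7 of the stem-like genes were lower and 0 higher. Tcf7 then stood at a log2 difference of -0.19 (edgeR adjusted p = 0.63) and Il7r at -0.25 (edgeR adjusted p = 0.013).

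Inhibitory receptor genes were lower or did not pass the test. Of the inhibitory receptor and exhaustion list 10 of 17 genes were lower and 0 higher (median -0.28), and 11 were lower against other cells matched on UMIs. Ctla4 stood at 368, 385, 534, 363, 647 and 486 CPM in cycling cells against 697, 514, 776, 531, 919 and 694 CPM, lower in each library (log2 difference -0.56, SE 0.04, edgeR adjusted p = 3.1e-09). Cd101 (-0.71), Tigit (-0.50), Cd200r1 (-0.49), Lag3 (-0.43) and Tox (-0.33), a transcription factor of exhausted cells, were lower too.

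Pdcd1, the gene of PD-1, stood at 137, 146, 200, 271, 219 and 158 CPM in cycling cells and at 153, 196, 234, 259, 250 and 184 CPM in other cells. It was lower in 5 of 6 libraries, the exception being anti-PD-L1 (log2 difference -0.22, edgeR adjusted p = 0.0030). Havcr2 as a level did not differ with all cells (205 to 293 against 194 to 328 CPM, log2 difference -0.07, edgeR adjusted p = 0.31), although more cycling cells held a UMI of it. Against other cells matched on UMIs it was lower (-0.27).

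More effector genes were lower than higher. Of the effector fate list 11 of 12 genes were lower (median -0.27), among them the factor Tbx21 (-0.53) and the receptors Itgax (-0.43), Klrk1 (-0.41) and Cx3cr1 (-0.34). Of the cytotoxicity and cytokine list 12 of 25 were lower and 3 higher (median -0.23; 12 lower and 1 higher against matched cells). The chemokine gene Ccl5 stood at 3253, 4462, 5621, 3710, 6298 and 3868 CPM against 5000, 7992, 9521, 7237, 9535 and 6999 CPM, lower in each library (log2 difference -0.80, SE 0.05, edgeR adjusted p = 6.1e-08). Ifng, the gene of interferon gamma, stood at 133, 407, 482, 421, 536 and 467 CPM in cycling cells and at 206, 457, 646, 546, 602 and 620 CPM in other cells. It was lower in each library (-0.34, edgeR adjusted p = 6.5e-06), and both states were lowest in the control library.

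The granzymes did not move together. Gzmc stood at 6.51, 34.97, 61.9, 53.3, 21.7 and 55.5 CPM in cycling cells against 4.42, 13.4, 27.9, 24.8, 4.37 and 26.6 CPM, higher in each library by 1.24 on the log2 scale, while against cells matched on UMIs the difference was 0.21 and was not called. Gzmb, the main granzyme of killer cells, was higher by 0.33, with the 2FF library as the exception (944 against 959 CPM). It stood at -0.06 against matched cells. Gzmm (-0.72) was lower, and Gzma (-0.72) was lower in 5 of 6 libraries but was not called against matched cells. The pore-forming gene Prf1 did not pass the test with all cells (468 ± 126 against 494 ± 156 CPM, n = 6 libraries).

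**Figure D5:**
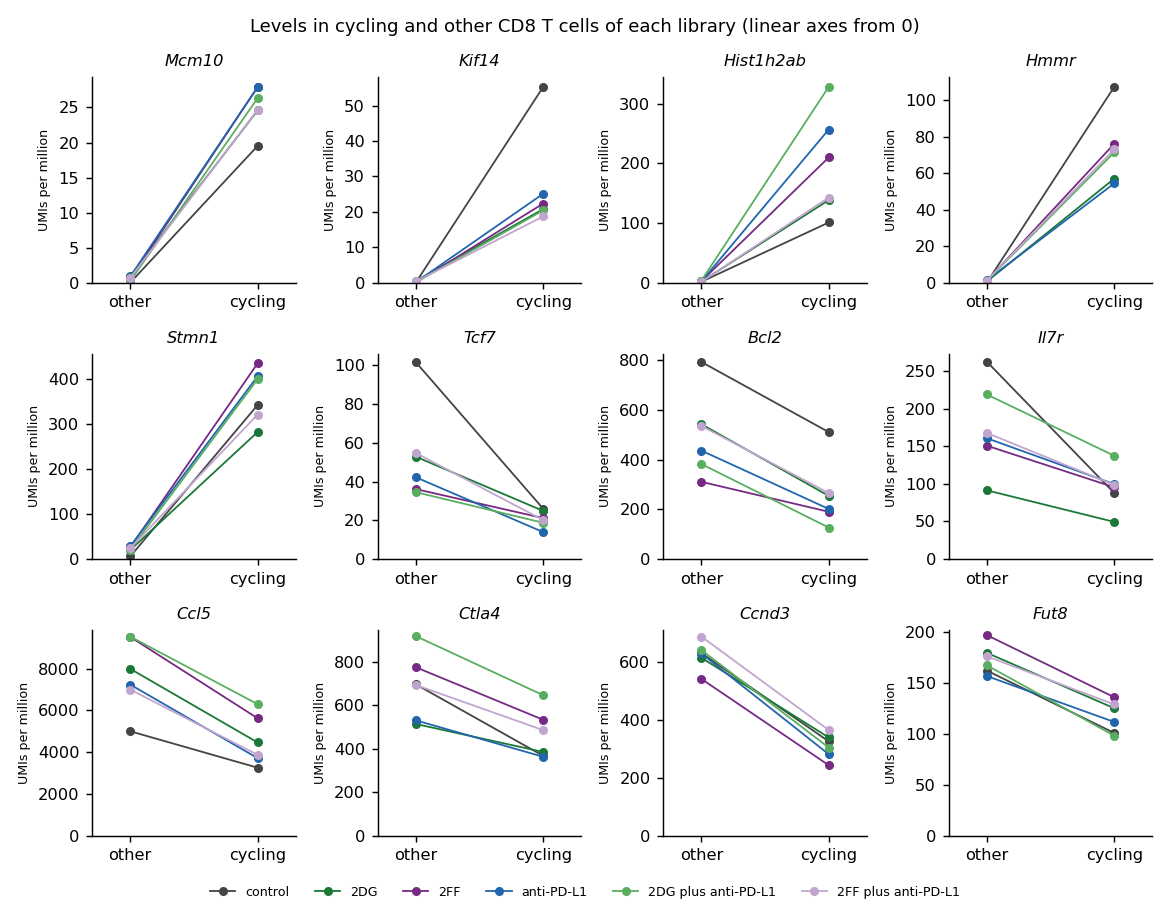
Levels in CPM of 12 named genes in other (left) and cycling (right) CD8 T cells, with 1 line per library, on linear axes from 0. Mcm10, Kif14, Hist1h2ab, Hmmr and Stmn1 rise from near 0 in each library, while Tcf7, Bcl2, Il7r, Ccl5, Ctla4, Ccnd3 and Fut8 end lower in each library.

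Of 30 activation and growth genes 7 were higher and 16 lower (median -0.17), and 3 were higher and 14 lower against cells matched on UMIs. All genes tested gave 23.4% higher and 20.7% lower, and 1807 and 1553 of 11042 against matched cells. The count of higher genes is therefore read no further. Higher were Il2ra (1.002), the high-affinity chain of the interleukin 2 receptor, the costimulatory receptors Tnfrsf4 (0.77) and Tnfrsf9 (0.40), and the transferrin receptor Tfrc (0.65), although Tnfrsf9 stood at -0.10 against matched cells. Il2ra stood at 29.3, 50.7, 99.6, 107, 122 and 138 CPM in cycling cells against 32.4, 26.4, 42.3, 42.5, 80.0 and 63.4 CPM, higher in 5 of 6 libraries with the control library as the exception. Lower were Cd28 (-0.59) and the genes that follow recent receptor signals, Egr3 (-0.58), Cd69 (-0.55) and Nr4a3 (-0.49). Myc did not pass the test (17.2 ± 8.38 against 16.4 ± 4.75 CPM).

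Of the migration and residency list 17 of 21 genes were lower and 0 higher (median -0.34), among them the collagen-binding integrin Itga1 (-0.82), the chemokine receptors Ccr8 (-0.90) and Cxcr3 (-0.79) and the residency integrin Itgae (-0.76). Against cells matched on UMIs 8 were lower. Of the survival and death genes 3 of 18 were higher and 5 lower (1 and 6 against matched cells). Over all genes tested 23.4% were higher and 20.7% lower, so these counts are read no further. The higher included Bak1 (0.46) and Bax (0.34), which act in cell death, and the lower Bcl2 and the death gene Bcl2l11 (-0.66).

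Energy and protein turnover genes were moderately higher. Of the oxidative phosphorylation list 42 of 45 genes were higher and 1 lower (median 0.41). Atp5b, a subunit of ATP synthase, stood at 309, 362, 454, 365, 437 and 413 CPM against 189, 236, 279, 234, 276 and 257 CPM, and no cycling value fell within the other range (log2 difference 0.64, SE 0.04, edgeR adjusted p = 1.0e-10). The cytochrome gene Cycs was higher by 0.73, and the exception was Uqcrh (-0.13). Against cells matched on UMIs 36 genes of this list were higher.

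Glycolysis genes, whose pathway 2DG blocks, were higher in 12 of 22 and lower in 1 (median 0.35), and 6 were higher and 2 lower against cells matched on UMIs. Tpi1 stood at 280, 186, 267, 251, 182 and 192 CPM against 168, 89.9, 125, 126, 96.2 and 108 CPM, higher in each library (log2 difference 0.94, SE 0.05). Ldha (0.67), which makes lactate, Pgk1 (0.65) and Gapdh (0.60) were higher, and Pdk1 (-0.31), which holds back mitochondrial use of pyruvate, was the exception. Of the proteasome list 19 of 21 were higher and 0 lower (median 0.41), led by Psmb6 (0.66) and Psmb5 (0.64), and of the unfolded protein response list 11 of 18 were higher and 1 lower (median 0.31; 7 higher and 2 lower against cells matched on UMIs), led by Sdf2l1 (0.83) and Creld2 (0.74).

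Of the glycan enzymes on which the study's inhibitors bear, 2 of 20 were higher and 7 lower (median -0.09; 1 and 7 against matched cells). Over all genes tested 23.4% were higher and 20.7% lower. Fut8 (chr12:77238125-77476338), the enzyme of core fucosylation, stood at 100.8, 125, 135.9, 112, 98.1 and 129 CPM in cycling cells and at 162, 179, 197, 157, 167 and 176 CPM in other cells. The groups did not overlap (log2 difference -0.58, SE 0.05, edgeR adjusted p = 1.7e-08). Mgat5, which adds a branch to N-glycans, stood at 312, 214, 185, 220, 198 and 220 CPM against 324, 285, 250, 286, 282 and 271 CPM. It was lower in each library (-0.41, edgeR adjusted p = 7.5e-07), and the control library was the highest in both states.

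Tsta3, which makes GDP-fucose, was higher by 0.44, and Man2a2 (-0.47), Man1a (-0.43) and B4galt1 (-0.41) were lower. Fut4 had 0 to 3 UMIs per library in cycling cells and Fut9 had 0 in all 6, and neither was tested. A count of 0 allows up to 3 counts, which are 9.76 CPM in the control library and 0.698 to 0.988 CPM in the other 5.

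Of the checkpoint ligand genes 2 of 8 were higher and 4 lower (1 and 5 against matched cells). All genes tested gave 23.4% higher and 20.7% lower, and the checkpoint counts are read no further. Cd274, the gene of PD-L1, stood at 189, 102, 98.9, 85.7, 104 and 134 CPM in cycling cells and at 203, 134, 163, 106, 130 and 146 CPM in other cells. It was lower in each library (-0.39, edgeR adjusted p = 0.00017). Lgals1, a galectin that binds glycans, was higher by 0.57. Of the interferon response genes 14 of 20 were lower and 0 higher (median -0.36). Ifit3 stood at 3.25, 5.99, 6.52, 4.19, 7.57 and 11.9 CPM against 20.6, 15.4, 15.5, 20.6, 21.7 and 19.0 CPM, without overlap (-1.39). The dissociation and stress list was lower in 9 of 19 genes and higher in 2 (median -0.31), with Junb (-0.67) and Fos (-0.58) lower and the heat shock genes Hsp90aa1 (0.48) and Hspa8 (0.34) higher.

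Outside the lists, the genes with the largest differences upward were Ska1 (6.53), Neil3 (6.37), Esco2 (6.20), Shcbp1 (5.58) and Cdca5 (5.53). Ska1 acts at the kinetochore, Esco2 in sister chromatid cohesion and Neil3 in the repair of replicating DNA. The histone genes Hist1h2bb (5.51), Hist1h2bm (5.32) and Hist1h2bj (4.53) and the genes Mxd3 (4.75) and Prr11 (4.61) followed. Lowest were Hs3st3b1 (-1.57), a heparan sulfate sulfotransferase, Atp8a2 (-1.51), Pou6f1 (-1.40), Cdh1 (-1.35), the gene of E-cadherin, and Dtx4 (-1.34). Cdh1 stood at 13.8 ± 5.33 CPM in cycling and 38.6 ± 15.2 CPM in other cells (n = 6 libraries), without overlap. Ablim3 (-1.32), Tcp11l2 (-1.31), Pde2a (-1.24), Plekha7 (-1.21) and Eya2 (-1.17) completed the lowest 10.

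Markers of other cell types were counted in both states. Of 11 macrophage and monocyte genes tested 6 were lower in cycling cells and 0 higher (median -0.40), and the list summed to 976, 686, 754, 923, 572 and 570 CPM against 986, 625, 839, 728, 744 and 746 CPM, with Cst3 the most abundant. Neutrophil markers summed to 3058, 27.7, 10.2, 17.6, 97.1 and 34.9 CPM against 1132, 53.04, 112, 28.7, 8.62 and 142 CPM, with S100a9 the most abundant and 0 of 4 genes called, so the control library held far more of them in both states. B cell markers summed to 71.6 to 462 CPM in cycling cells and 171 to 410 CPM in other cells, with Cd74 the most abundant and 0 of 2 called, and Cd79a was at 0 by the gate. NK and gamma-delta T cell markers summed to 209 to 423 CPM and 225 to 366 CPM, with Klre1 the most abundant and 1 of 7 called (Klrb1c, with a log2 difference of -1.17), while 4 were lower against matched cells. Trdc, the constant gene of the delta chain, was at 0 UMIs in the cycling cells of 4 libraries, at 3 UMIs in anti-PD-L1 and at 72 UMIs in 9 cells of 2DG. Of the tumor and stroma list 1 of 10 genes could be tested, and it was not called. The part of these cell types in the differences above was not tested. Without the control library 2707 genes were higher and 2484 lower.

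The cycling difference was next compared between CD8 and CD4 T cells, by the interaction in one edgeR fit over 11109 genes. CD4 T cells were selected in the same way and gave 767 cycling cells of 3314. The signed log2 difference was higher in CD8 than in CD4 T cells for 5 genes (0.045% of those tested) and lower for 3 (0.027%). At an unadjusted p under 0.05 there were 456 and 458. The calls depended on single libraries, with 9 genes higher and 4 lower without the control library and 8 and 1 without 2FF. There were 2 and 0 without anti-PD-L1, 0 and 1 without 2DG plus anti-PD-L1, and 5 and 0 without 2FF plus anti-PD-L1. With other cells matched on UMIs, 1 gene was higher and 0 lower, and with doublets removed 20 and 7.

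Rad51b, a recombination gene (chr12:79297282-79814690), stood at 117, 199, 209, 232, 184 and 200 CPM in cycling CD8 T cells and at 22.1, 14.2, 11.3, 22.3, 14.2 and 18.3 CPM in other CD8 T cells. In CD4 T cells the means were 279 CPM and 90.1 CPM, so the log2 difference was 3.64 in CD8 and 1.55 in CD4 T cells, larger in CD8 by 2.09 (SE 0.26, edgeR adjusted p = 0.015, 5 of 6 libraries). Both CD4 states held more Rad51b than the matching CD8 states, and as a ratio the gap was wider in other cells. It was the gene called in the matched comparison (edgeR adjusted p = 8.0e-05), and its adjusted p was over 0.05 without 2DG, without anti-PD-L1 and without either combination library. Lig1, the ligase of replication, stood at 112 against 21.6 CPM in CD8 and 124 against 43.1 CPM in CD4 T cells, so its difference was larger by 0.83. Dut, which removes dUTP, was larger by 0.55, and Unc13b by 1.53, being higher in cycling CD8 (0.84) and lower in cycling CD4 T cells (-0.70). More negative in CD8 than in CD4 T cells was the difference of Irak2 (-0.63 against -0.16), a signalling kinase of the interleukin 1 receptor family. The same held for Rgs3 (-0.31 against 0.15), a regulator of G protein signals, and Abr (-0.37 against 0.01). Their interactions were -0.47, -0.45 and -0.39. The remaining gene, Gm43305 (0.60), is named because the count is small and was chosen after its values were seen. Its edgeR adjusted p was 0.035, 0.054 with RLE scaling and 0.23 with Foxp3-negative CD4 T cells only.

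The libraries were compared with each other within the cycling cells as ratios of CPM + 5, for genes that reached 50 UMIs in both libraries together. A gene scarce in 1 library could pass this limit only through the other, which bears on the counts and medians of lists below. There is no replicate and no test, and a gene counts as past the limit at a 2-fold ratio. The 2DG, 2FF and anti-PD-L1 comparisons share the control library, and both combinations share the anti-PD-L1 library. Past 2-fold were 497 genes of 2DG over control (6.8% of those compared), 726 of 2FF over control (8.97%) and 662 of anti-PD-L1 over control (8.56%). Past 2-fold were 133 genes when 2DG was added to anti-PD-L1 (1.51%) and 135 when 2FF was added (1.46%), each relative to anti-PD-L1 alone. With each cell thinned to 3000 UMIs these 2 counts were 103 and 42. The control sum rests on 23 cells and 307411 UMIs, against 303 to 426 cells and 3037516 to 4296068 UMIs in the other libraries.

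In cycling cells of 2FF plus anti-PD-L1, interferon response genes stood above anti-PD-L1 in 18 of 20 cases, with a median log2 ratio of 0.57, against 0.14 in other CD8 T cells and -0.04 over all genes. Past 2-fold were 5 of them, where 1.46% of all genes were. Gbp2, an interferon-induced GTPase, stood at 110 CPM (95% Poisson interval 100.7 to 121) against 40.5 CPM (34.1 to 47.6). Isg15 stood at 72.6 CPM (64.7 to 81.2) against 28.2 CPM (23.0 to 34.3). Iigp1 stood at 41.7 CPM against 6.42 CPM, from 176 UMIs in 19 cells and 23 UMIs in 10 cells. In 2DG plus anti-PD-L1 the interferon list stood above anti-PD-L1 in 16 of 18 cases with a median of 0.29 (0.21 in other CD8 T cells).

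Markers of other cells and of stress moved in these comparisons too. In 2FF plus anti-PD-L1, 3 of 4 tumor and stroma genes were past 2-fold above anti-PD-L1. They were Krt8 from 90 UMIs in 4 cells, Krt18 from 81 UMIs in 2 cells and Col3a1 from 50 UMIs in 1 cell. These 3 genes reached 50 UMIs only through the library where they were high. Their count is therefore not read, and no contrast with other CD8 T cells is drawn. Both neutrophil genes compared stood above (median 0.93, other CD8 T cells 2.12), as did 15 of 19 dissociation and stress genes (median 0.28, other CD8 T cells 0.01). In 2DG plus anti-PD-L1 both neutrophil genes were past 2-fold above (median 2.34, other CD8 T cells -1.10), with S100a9 at 185 UMIs in 7 cells. The neutrophil list summed to 17.6 CPM in anti-PD-L1, so the limit of 50 UMIs bears on both of these comparisons. Dissociation and stress genes stood above in 14 of 19 cases (median 0.18), and macrophage and monocyte genes below in 8 of 9 (median -0.32). The part of these cells and of stress in the ratios of the interferon, stem-like and other lists over anti-PD-L1 was not tested.

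Glycolysis genes stood below anti-PD-L1 in 16 of 18 cases in 2DG plus anti-PD-L1 (median -0.37, other CD8 T cells -0.27) and in 16 of 19 in 2FF plus anti-PD-L1 (median -0.21, other CD8 T cells -0.22), with 0 past 2-fold in either. Over all genes 5232 of 8815 (median -0.07) and 5177 of 9245 (median -0.04) stood below anti-PD-L1, so most genes lay on the same side as the glycolysis list. Stem-like genes stood above anti-PD-L1 in 14 of 15 cases in 2FF plus anti-PD-L1, with a median of 0.41 (0.24 in other CD8 T cells) and 4 past 2-fold. The mitosis list had medians of 0.03 and 0.04 in the combinations, and the DNA replication list 0.04 and -0.16. Histone genes had a median of 0.31 in 2DG plus anti-PD-L1 and of -0.29 in 2FF plus anti-PD-L1.

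Of the genes the study follows, Pdcd1 stood at 158 CPM (146 to 170) in 2FF plus anti-PD-L1 and at 219 CPM (203 to 237) in 2DG plus anti-PD-L1 against 271 CPM (254 to 288) in anti-PD-L1, a log2 ratio of -0.76 and -0.30. Cd274 stood at 134 CPM (123 to 145) and 104 CPM (93.2 to 116) against 85.7 CPM (76.4 to 95.8). Ifng stood at 467 CPM (447 to 488) and 536 CPM (511 to 563) against 421 CPM (400 to 443), and at 133 CPM in the control library. Mgat5 stood at 220 CPM and 198 CPM against 220 CPM, and Fut8 at 129 CPM and 98.1 CPM against 112 CPM.

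The highest ratios of 2DG plus anti-PD-L1 relative to anti-PD-L1 alone were those of Abcb1b, a drug efflux pump (241 against 77.6 CPM), of Emb, a cell adhesion gene (1246 against 428 CPM), and of Raet1e, a stress ligand of the receptor NKG2D (131 against 43.5 CPM). Other CD8 T cells gave log2 ratios of 1.81, 1.11 and 1.40 for these 3 genes, against 1.58, 1.53 and 1.49 in cycling cells. The lowest were Hspa1b, a heat shock gene (4.61 against 80.7 CPM), Taco1 (19.4 against 75.9 CPM) and the peptide transporter Slc15a2 (3.95 against 19.3 CPM). In 2FF plus anti-PD-L1 the highest were Fam155a (187 UMIs in 11 cells against 8 UMIs), Plat, the tissue plasminogen activator (147 UMIs in 10 cells against 13 UMIs), and Snhg6 (30.1 against 6.42 CPM). The lowest were Fam20a (5.45 against 33.5 CPM), Slc15a2 (3.79 against 19.3 CPM) and Itgae (9.96 against 33.5 CPM). Other CD8 T cells gave log2 ratios of 2.07, 0.20 and 1.38 for the highest and of -0.85, -1.60 and -0.57 for the lowest. All of these genes, and Hspa1b and Slc15a2 in 2DG plus anti-PD-L1, passed the limit of 50 UMIs only through the library where they were high. No difference between cycling and other cells is read from them.

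Over the control library, the highest ratios belonged to genes with 0 UMIs in its 23 cycling cells. These genes reached 50 UMIs only through the other library, so their place at the top was set by that filter, and their folds are lower bounds against 3 counts in the control library (9.76 CPM). Apol8 was at least 3.49-fold higher in 2DG and at least 4.63-fold higher in anti-PD-L1 (log2 ratios in other CD8 T cells 1.72 and 2.10). The chemokine gene Ccl1 was at least 2.74-fold higher in 2DG, from 85 UMIs in 10 cells, and at least 4.58-fold higher in anti-PD-L1 (other CD8 T cells 3.33 and 2.38). In 2FF the granzyme gene Gzmf was at least 3.86-fold higher, from 162 UMIs in 10 cells (other CD8 T cells 3.48). Tmcc3 was at least 3.03-fold higher in 2FF and at least 4.58-fold higher in anti-PD-L1, where other CD8 T cells gave log2 ratios of -0.61 and -0.75. Prdm15 was at least 2.10-fold higher in 2DG and Ccs at least 2.58-fold higher in 2FF, with log2 ratios of 0.05 and 0.24 in other CD8 T cells. Since the filter chose these genes on cycling cells, no difference between cycling and other cells is read from them. Lower than in the control library were Fam162a (log2 ratio -1.68), Rnf11 (-1.68) and Dgkh (-1.61) in 2DG, Dscam (-2.49), Hspa1b (-2.18) and Pnpla7 (-1.73) in 2FF, and Hspa1b (-2.13), Rnf11 (-1.81) and Hspa1a (-1.71) in anti-PD-L1. The mitosis list had medians of -0.46, -0.24 and -0.21 and the DNA replication list of 0.36, 0.52 and 0.43 in these 3 comparisons. In other CD8 T cells the mitosis medians were 0.19, 0.17 and 0.13 and the DNA replication medians 0.27, 0.25 and 0.38. All 3 neutrophil markers that could be compared stood lower than in the control library in each comparison (medians -6.70, -7.39 and -7.06). Their list summed to 3058 CPM in the control library against 27.7, 10.2 and 17.6 CPM. They thus passed the limit of 50 UMIs mainly through the control library, and their count and medians are not read. Dissociation and stress genes stood lower in 17, 13 and 15 of 19 cases, with 7, 6 and 9 past 2-fold. Of all genes compared, 3442 of 7311, 3561 of 8095 and 3277 of 7733 stood lower, with 218, 260 and 245 past 2-fold. Cd74, the B cell marker compared, had log2 ratios of 2.07, 2.87 and 2.91, and it passed the limit of 50 UMIs only through the libraries other than control. The part of these genes in the other ratios over control was not tested. Among the cycling cells of the control library, mitosis genes summed to 11985 CPM in the 6 cells with 10 or more gate UMIs, of which 3 were marked as doublets, and to 5247 CPM over all 23.

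T cell receptor beta chains were read from cells with UMIs of exactly 1 Trbv gene, which were 9, 83, 80, 65, 72 and 94 of the cycling cells. No single Trbv gene took most of them. The leading genes were Trbv12-2 and Trbv13-3 in control (22.2% each, 2 of 9 cells), Trbv13-3 in 2DG (18.1%; 95% interval 10.5 to 28.1%), Trbv12-1 in 2FF (20%; 11.9 to 30.4%), Trbv19 in anti-PD-L1 (13.8%; 6.53 to 24.7%), Trbv29 in 2DG plus anti-PD-L1 (13.9%; 6.87 to 24.1%) and Trbv12-1 in 2FF plus anti-PD-L1 (10.6%; 5.22 to 18.7%). In other CD8 T cells the leading gene was Trbv13-3 in 2DG (27.5%) and in both combinations (14.4% with 2DG, 18.4% with 2FF). It was Trbv17 in control (4 of 19 cells) and Trbv15 in anti-PD-L1 (17.8%), while Trbv12-1 and Trbv13-3 tied in 2FF (18.7% each). The chance that a pair of assigned cells shared a Trbv gene was 5.56%, 9.05%, 9.97%, 7.16%, 7.51% and 6.22% in cycling cells against 9.36%, 11.8%, 10.6%, 8.54%, 7.96% and 9.43% in other cells, lower in cycling cells of each library. The cells left out, and the control library with 9 cells, limit these values.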

How the data were processed

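Matrices of raw UMI counts were deposited by the authors for 6 libraries, 1 mouse each, over barcodes called as cells. Reads were aligned with STAR in Cell Ranger to mm10. The file headers give version 7.0.0 and the submitters' processing notes 3.1.0. Whether intronic reads were counted is not given in the sources used here. Of 57078 barcodes, 51633 with at least 250 genes and at most 5% mitochondrial UMIs were kept, the study's stated limits. Pairs of libraries shared 16 to 34 barcode sequences.

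Counts were summed per library, lineage and state, and CPM are counts per 1000000 UMIs of that sum. Each sum entered edgeR 4.0.16 (R 4.3.3) as 1 sample, with TMM scaling, filterByExpr, glmQLFit and glmQLFTest, the library as a block and Benjamini-Hochberg adjustment at 0.05. Same-library sums come from the same mouse, which pairs them. The gate genes were left out of the fits. DESeq2 1.42.0 was an alternative. On simulated counts the paired fit recovered 90.9% of genes changed 2-fold and 71.2% of those changed 1.5-fold, and the interaction 66.5% and 29.8%. Of the calls made there, 8.67% and 9.62% were false in the paired fit, above the nominal 5%, and 5.07% and 1.67% in the interaction. Libraries were compared as log2 ratios of CPM + 5, for genes that reached 50 UMIs, without a test. Doublets were marked by their share of simulated doublets among neighbouring cells, and kept. Poisson and Clopper-Pearson intervals are exact, at 95%.

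The members, the 29 gene lists and the alternatives were chosen with earlier results of these data known. Named are the gate genes, genes the study names for these data, of each list up to 4 members with the largest called differences in each direction and members whose role is described, the 10 highest and 10 lowest called genes outside the lists with at least 50 UMIs in each of 3 libraries, the 5 smallest interaction p in each direction, and the 3 highest and 3 lowest ratios of each pair of libraries with UMIs in at least 10 cells. Left out of these rankings were mitochondrial, ribosomal, immunoglobulin, T cell receptor, haemoglobin, Gm and Rik genes, Xist, and genes at under 20% of their level in neutrophils, macrophages or B cells of the same library. Gene coordinates are GENCODE M21 on GRCm38, and promoters are from RefSeq. Some genes that this rule names are not reported here.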

Additional observations from a re-analysis of the deposited data

Results flagged for a closer look

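These genes of cycling CD8 T cells stood out because the difference between cycling and other cells was not the same in CD8 as in CD4 T cells by the interaction test in edgeR. The interaction is the log2 difference in CD8 minus that in CD4 T cells. It was 0.83 for Lig1 (2.31 in CD8 and 1.48 in CD4 T cells), 0.55 for Dut (1.92 and 1.36), 1.53 for Unc13b (0.84 and -0.70) and 2.09 for Rad51b (3.64 and 1.55). It was -0.47 for Irak2 (-0.63 and -0.16), -0.39 for Abr (-0.37 and 0.01) and -0.45 for Rgs3 (-0.31 and 0.15). Among the 5 genes with the smallest p in each direction, those that did not pass the test were Adk (0.95, edgeR adjusted p = 0.051), Cmah (-0.82, edgeR adjusted p = 0.058) and Bend4 (-0.75, edgeR adjusted p = 0.062). Cycling CD4 T cells include Foxp3-positive cells, and with Foxp3-negative CD4 T cells only the adjusted p was 1.7e-05 for Rad51b, 0.045 for Lig1, 0.051 for Rgs3 and 0.23 for Gm43305 in edgeR.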

How the results depend on the processing

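The cycling shares moved most with a gate of 10 or more UMIs, which was added after the data were seen. Among the planned settings they moved most with thinning to 3000 UMIs. With 3 or more gate UMIs they were 11.9%, 14.1%, 13.5%, 13.7%, 10.6% and 19.9%, in the library order used above. They were 8.996%, 11.5%, 11.9%, 11.4%, 9.55% and 14.6% at 3000 UMIs, and 4.76%, 5.55%, 5.85%, 5.28%, 5.20% and 8.91% with 10 or more gate UMIs. The share of cycling cells past the mitosis limit, leaving aside the control library, was 63.1%, 69.7%, 70.1%, 61.5% and 64.9% at a limit of 3 UMIs, and at 8 UMIs it was 27.8%, 34.3%, 36.3%, 37.5% and 32.2%, so that the combination with 2DG, among the lowest at 5 UMIs, was then the highest. The gap between Havcr2-positive and Tcf7-positive cells was 5.27 points without doublets, 5.20 with Havcr2 and Tcf7 thinned, and 4.78 to 6.39 leaving out each library, where 5 pairs allow no exact p under 0.0625.

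Genes higher in cycling cells numbered 1803 to 2784 and lower ones 1079 to 2577 over all settings, 2245 to 2707 and 1924 to 2484 leaving out each library, and 1079 were lower without the replicate block. With DESeq2 2117 were higher and 2144 lower. The interaction gave 149 genes higher and 96 lower in CD8 than in CD4 T cells without a filter on low counts. It gave 1 and 0 matched on UMIs, 20 and 7 without doublets, and 6 lower with Foxp3-negative CD4 T cells. Leaving out each library gave 0 to 9 higher and 0 to 4 lower.

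Genes past 2-fold numbered 251 (2DG over control), 406 (2FF) and 358 (anti-PD-L1) at 100 UMIs and 958, 1163 and 1157 at 20 UMIs. They numbered 225 in 2DG plus anti-PD-L1 with 1 CPM added, and in 2FF plus anti-PD-L1 242 with 1 CPM added, 84 at 100 UMIs and 42 thinned. Of 2168 values for 145 named genes, 2019 kept their direction and call, 143 lost the call, and 6 turned when other cells were matched on UMIs, namely Cd80 (-0.11), Cdkn1a (-0.26), Eno3 (-0.15), Gzmb (-0.056), Serpinb6b (-0.18) and Tnfrsf9 (-0.10). The causes were not tested.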
